A study of Mus musculus with 4 samples.

Results

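The genes described here handle the uptake, export and transport of sterols or are targets of the liver X receptors (LXRs). They are Nr1h2, Nr1h3, Abca1, Abcg1, Mylip, Smpdl3a, Arl4c and Stard4, and all 8 were among the 32285 genes counted. They were chosen by symbol, with earlier results of these data known. They were followed in single-cell RNA-seq libraries of iNKT cells (invariant natural killer T cells) from the thymus, lymphocytes whose receptor recognises lipids held by CD1d. The libraries were 2 wild-type (WT) and 2 ACC1 knockout (ACC1 KO) ones, from mice 6 to 8 weeks old. Cells had been enriched with magnetic beads and sorted for CD3 and binding of a CD1d tetramer. ACC1, encoded by Acaca, makes malonyl-CoA in the committed step of fatty acid synthesis. The Cre driver, the deleted part of Acaca, the sex of the mice and whether a library stands for 1 animal were not stated by the submitters in what was used here, so p-values measure only the spread between these libraries.

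LXRs are nuclear receptors that pair with retinoid X receptors and are switched on by oxysterols, oxidised forms of cholesterol. Active LXRs raise the transcription of genes that move cholesterol out of the cell and of a ligase that removes lipoprotein receptors, so that a cell rich in sterols takes up less and exports more. The SREBP2 system works in the opposite sense, since low membrane cholesterol turns on sterol synthesis and uptake. In T cells, LXR beta is known as the main form, and LXR signalling is known to limit proliferation. LXRs bind to a DR4 element, a direct repeat of the half-site AGGTCA spaced by 4 bases.

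Promoter sequences from RefSeq (GRCm38.p6, the mm10 build) were found for 5 of the 8 genes, namely Abca1, Arl4c, Mylip, Nr1h2 and Nr1h3. The 250 bases before the annotated start of 3 of them are shown, because Abca1 had the largest log2 fold change of the 8 between genotypes and Arl4c and Mylip are also known LXR targets. Each runs 5′ to 3′ on the strand of its gene, and capitals mark the closest DR4-like match, which in both cases reads on the opposite strand.
Abca1, chr4:53159896-53160145, minus strand: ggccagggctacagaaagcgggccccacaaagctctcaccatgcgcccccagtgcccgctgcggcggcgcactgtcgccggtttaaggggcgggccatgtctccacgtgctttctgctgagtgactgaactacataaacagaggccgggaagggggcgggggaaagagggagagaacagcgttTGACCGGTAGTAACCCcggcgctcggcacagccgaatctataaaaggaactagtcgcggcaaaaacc
Arl4c, chr1:88702192-88702441, minus strand: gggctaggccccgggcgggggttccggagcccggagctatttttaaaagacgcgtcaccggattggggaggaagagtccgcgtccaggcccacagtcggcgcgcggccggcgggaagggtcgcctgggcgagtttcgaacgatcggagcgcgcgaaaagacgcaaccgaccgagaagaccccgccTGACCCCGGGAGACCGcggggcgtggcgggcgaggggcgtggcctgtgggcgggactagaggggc
Mylip, chr13:45389492-45389741, plus strand: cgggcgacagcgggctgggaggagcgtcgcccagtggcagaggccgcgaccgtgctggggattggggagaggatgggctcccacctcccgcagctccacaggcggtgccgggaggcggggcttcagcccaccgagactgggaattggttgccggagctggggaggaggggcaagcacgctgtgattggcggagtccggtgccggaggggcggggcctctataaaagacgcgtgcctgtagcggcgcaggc
The Abca1 match, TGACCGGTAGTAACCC, begins at position -67 from the start and differs from the DR4 element at 3 bases. The Arl4c match begins at position -65 and also differs at 3 bases. The closest matches of Nr1h2 and Nr1h3 had 4 mismatches and that of Mylip had 5. Windows of 300 bases, 250 before and 50 after the start, held a match with at most 3 mismatches in 21.9% of all 32851 promoters of the table, so such a match is common. The boxes CCAAT and GGGCGG, on either strand, were in 37.4% and 35.7% of these windows. Mylip and Arl4c held both boxes, Abca1 held GGGCGG alone, and Nr1h2 and Nr1h3 held neither. The ABCA1 promoter is known for an LXR element near its start. These matches are a description of the letters, not evidence of binding.

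Levels are given as CPM, the share per 1e6 of a gene's unique molecular identifiers (UMIs, tags that mark single captured RNA molecules) in the summed UMIs of a library or class. The 27033 cells kept as iNKT cells held 23.5, 62.6, 28.5 and 65.0 M UMIs, in the order WT 1, WT 2, ACC1 KO 1, ACC1 KO 2. Number 1 and number 2 libraries differed in depth and in sex-linked RNA. Xist was at 0.553 and 0.245 CPM in the number 1 libraries and at 585 and 651 CPM in the number 2 libraries. Ddx3y, a Y-linked gene, was at 82.4 and 76.8 CPM in the number 1 and at 0.0479 and 0.0769 CPM in the number 2 libraries. Fold changes in all iNKT cells are therefore also given within each number, where they compare a single WT with a single ACC1 KO library. Acaca was at 34.6, 32.1, 47.0 and 60.7 CPM in the same order. The reads are 3′ tags, which would not show a deletion elsewhere in the gene, so these levels do not check the labels, and the libraries are named as labelled. Pairs of libraries shared 10 to 27 cell barcodes. The sorted cells also held 84 myeloid-like cells, 551 B cell-like cells and 579 DP (double-positive) thymocyte-like cells, which were kept out of the iNKT sums.

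In the edgeR quasi-likelihood test of all iNKT cells, none of the 8 genes passed an adjusted p of 0.05, a threshold passed by 0.0068% of the 14710 genes tested. At an unadjusted p under 0.05, 3 of the 8 passed, Abca1, Abcg1 and Stard4, against 4.84% of all genes. DESeq2 called 2 of the 8 higher in ACC1 KO, Abca1 and Abcg1, against 0.455% of all genes, and called none of them lower. Both ACC1 KO libraries stood above both WT libraries for 4 of the 8 genes (Abca1, Abcg1, Stard4 and Arl4c), against 11.4% of all genes. Both stood below for 1 gene, Smpdl3a, against 19.4% of all genes. With TMM scaling of the libraries the same 4 and 1 genes were separated, and the shares of all genes were 14.5% and 15.3%. The median log2 fold change was 0.25 over the 8 genes and -0.01 over all genes tested. Because the 8 were chosen with earlier results known, these shares describe them and do not test them as a set.

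**Figure D1:**
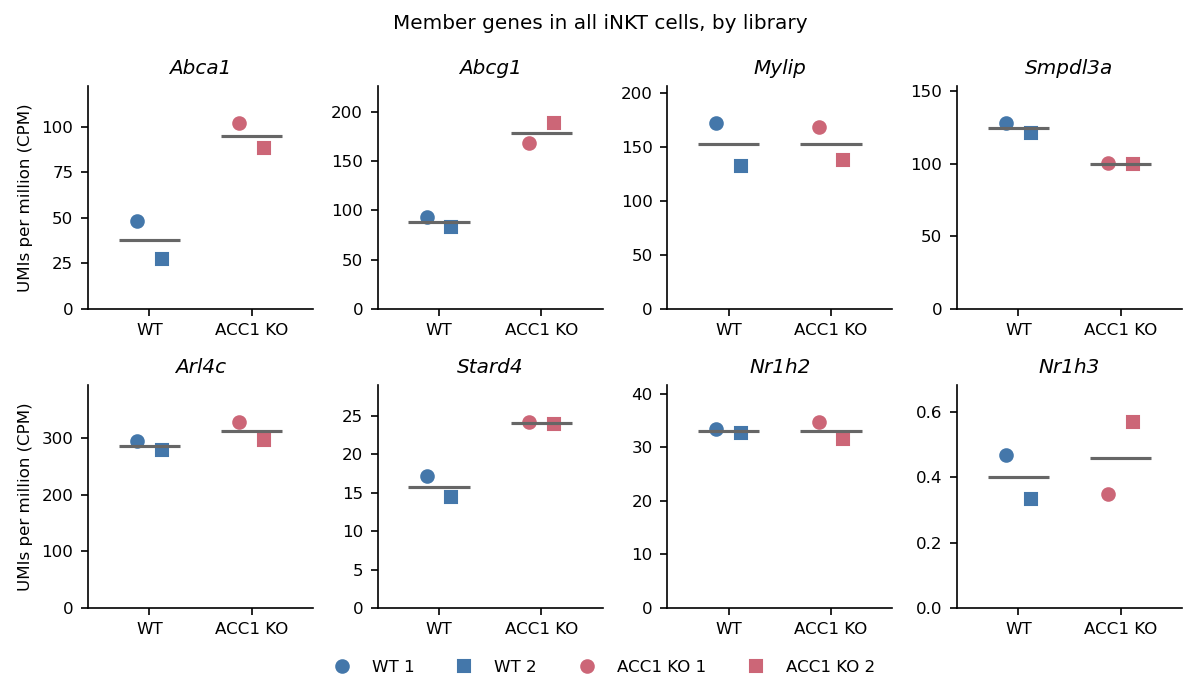
Level of each of the 8 genes in the sum of all iNKT cells, in CPM on an axis from 0, for WT (blue) and ACC1 KO (red) libraries, with circles for number 1, squares for number 2 and a line at the mean of the 2 libraries. The ACC1 KO points lie above the WT points for Abca1, Abcg1, Stard4 and Arl4c, below them for Smpdl3a, and among them for Mylip, Nr1h2 and Nr1h3.

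The receptors differed little between genotypes. Nr1h2 (chr7:44549616-44553951), which encodes LXR beta, was at 33.4 and 32.6 CPM in the WT libraries, against 34.7 and 31.6 CPM in the ACC1 KO libraries. The ranges overlapped, and the log2 fold change was 0.05 ± 0.13 (SE, edgeR adjusted p = 0.9998), or 0.14 within number 1 and -0.03 within number 2. Nr1h3 (chr2:91184061-91202834), which encodes LXR alpha, gave 79 UMIs in all 27033 iNKT cells. Its levels were 0.468 and 0.335 CPM in WT, against 0.350 and 0.569 CPM in ACC1 KO, which overlap, and a change of Nr1h3 in either direction was not detectable at this depth (log2 fold change 0.32 ± 0.47). It was at -0.30 within number 1 and at 0.70 within number 2, so the sign differed between the numbers. Over the 5 classes with at least 50 cells in both WT libraries, WT means of Nr1h2 ran from 22.1 CPM in iNKT17-like to 35.3 CPM in interferon-responding cells. In iNKT0-like cells Nr1h2 was at 41.2 CPM in WT 1 and at 55.6 and 37.9 CPM in the ACC1 KO libraries, above the other 4 classes with at least 50 cells in both ACC1 KO libraries, from 12, 22 and 23 UMIs.

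The 2 exporters showed the main difference of the set. Abca1 (chr4:53030787-53159895) encodes a transporter that loads cholesterol onto lipid-poor apolipoprotein. It was at 48.0 CPM in WT 1 and 27.4 CPM in WT 2, and at 102 CPM in ACC1 KO 1 and 88.3 CPM in ACC1 KO 2. The lower ACC1 KO library stood well above the higher WT library, and WT 2 was the lowest of the 4. The log2 fold change was 1.40 ± 0.26 (SE), with an edgeR adjusted p of 0.502 and a DESeq2 adjusted p of 7.37e-05. Within number 1 it was 1.17 and within number 2 it was 1.70. Leaving out WT 1 gave a log2 fold change of 1.80 for Abca1. Whether Abca1 passed the edgeR threshold depended on which library was left out. Each such fit leaves 1 library in an arm, which is assumed to vary as the other arm does. Its spread comes from the 2 libraries of the other genotype and is shared over all genes, so its p-values are not given.

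Abcg1 (chr17:31057675-31117988) encodes a half-transporter that passes cholesterol to mature lipoprotein particles. It was at 93.0 and 83.1 CPM in WT 1 and WT 2 and at 169 and 189 CPM in ACC1 KO 1 and ACC1 KO 2. The 2 genotypes did not overlap, and the libraries of a genotype lay close together. The log2 fold change was 1.07 ± 0.13 (SE), with an edgeR adjusted p of 0.294 and a DESeq2 adjusted p of 9.49e-07. It was 0.94 within number 1 and 1.197 within number 2. Abca1 and Abcg1 thus passed DESeq2 but not edgeR with 2 libraries a group and no covariate, and neither is counted as changed by that edgeR test.

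Stard4 (chr18:33199355-33213862) encodes a soluble carrier that moves cholesterol between membranes and is known as an SREBP2 target. It was at 17.2 and 14.4 CPM in WT, against 24.2 and 23.9 CPM in ACC1 KO. Both ACC1 KO libraries were above both WT libraries. The log2 fold change was 0.66 ± 0.13 (SE), with adjusted p-values of 0.543 in edgeR and 0.122 in DESeq2, and it was 0.58 and 0.74 within numbers 1 and 2.

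The remaining LXR targets had smaller differences. Mylip (chr13:45389742-45412022) encodes a ubiquitin ligase that marks lipoprotein receptors for degradation. It was at 172 and 132 CPM in WT, against 168 and 137 CPM in ACC1 KO. Here the levels went with the number of the library and not with the genotype, and the log2 fold change was 0.06 ± 0.17, with 0.05 and 0.07 within numbers 1 and 2. Smpdl3a (chr10:57794335-57811830) encodes a secreted phosphodiesterase of the acid sphingomyelinase family. It was at 128 and 121 CPM in WT, against 100.1 and 99.8 CPM in ACC1 KO. Both ACC1 KO libraries were lower, with a log2 fold change of -0.27 ± 0.11 that did not pass (unadjusted p = 0.0642, edgeR adjusted p = 0.9998) and that was -0.27 within either number. Arl4c (chr1:88673125-88702221) encodes a small GTPase of the ADP-ribosylation factor family. It was at 295 and 279 CPM in WT, against 328 and 297 CPM in ACC1 KO. ACC1 KO 2 exceeded WT 1 only slightly, and the log2 fold change was 0.17 ± 0.14 (edgeR adjusted p = 0.9998), with 0.24 and 0.11 within numbers 1 and 2.

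Markers of other cells moved with the genotype in the sum of all iNKT cells, and their part in these values was not tested. The 12 cycling markers summed to 110 and 236 CPM in WT, against to 261 and 365 CPM in ACC1 KO, and all 12 were higher in both ACC1 KO libraries. The 10 DP thymocyte markers summed to 39.6 and 28.4 CPM in WT, against to 62.8 and 54.5 CPM in ACC1 KO, and 2 of them stood above the WT range in both ACC1 KO libraries and 1 below it. The 12 iNKT17 markers summed to 121 and 73.2 CPM in WT, against to 38.0 and 30.4 CPM in ACC1 KO, and 10 of them were lower in both. The 5 gamma-delta T cell markers (Trdc, 3 Tcrg constant genes and Sox13) summed to 281 and 237 CPM in WT, against 138 and 125 CPM in ACC1 KO, and 4 of them were lower in both. Of the 10 iNKT0 and the 12 iNKT2 markers, 3 and 4 were higher in both and none lower. Of the 11 S phase and the 12 interferon markers, 6 and 6 were higher in both, and 0 and 1 lower. Of the 13 iNKT1 markers, 5 were lower in both and none higher. Over all genes tested in this sum, 11.4% were higher in both and 19.4% lower in both. Of the 15 myeloid markers, 6 were higher in both and 3 lower in both. Among them Lyz2 was at 0.0798 to 0.425 CPM, Csf1r at 0.210 to 0.463 CPM and Fcer1g at 160 to 260 CPM in the 4 sums. With every library given the same mix of classes, Abca1 was at 47.7, 28.7, 101 and 87.9 CPM and Abcg1 at 92.5, 82.5, 169 and 190 CPM in the same order of libraries, close to the values without that step.

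Clusters were named from marker genes, and 4 named iNKT classes had at least 50 cells in every library. A further 1004 iNKT cells, cluster 9, stayed unnamed, with 486 and 395 cells in WT, against 50 and 73 in ACC1 KO. They count in the sum of all iNKT cells but in none of the named classes. iNKT1-like cells carry the T-bet programme and were 20263 of the 27033 cells. iNKT2-like cells, which carry high Zbtb16 (PLZF), numbered 1120, cycling cells 1307 and interferon-responding cells 2760. In iNKT1-like cells, cluster 0 held more WT cells (1202 and 1357 against 647 and 504) and cluster 7 more ACC1 KO cells (291 and 1118 against 29 and 102), so the class is not made of the same clusters in the 2 genotypes. Within it the DP thymocyte markers summed to 17.9 and 17.3 CPM in WT, against 47.1 and 35.3 CPM in ACC1 KO (4 of 10 higher in both), and the gamma-delta T cell markers to 249.3 and 227 CPM, against 141 and 116 CPM (4 of 5 lower in both, 1 higher). The 12 cycling markers summed to 10.1 and 8.89 CPM in iNKT1-like cells of WT, against 13.6 and 12.3 CPM in ACC1 KO. Of these, 6 were higher in both and none lower. Over all genes tested in iNKT1-like cells, 7.42% were higher and 22.6% lower in both ACC1 KO libraries. The gamma-delta T cell markers were also lower in both for 4 of 5 in cycling and in interferon-responding cells. In iNKT2-like cells this held for 3 of 5. Over all genes tested in cycling, interferon-responding and iNKT2-like cells, 14.5%, 20.4% and 12.8% were lower in both. The shares higher in both were 13.4%, 9.23% and 12.1%, in the same order of classes. The part of these markers in the results by class was not tested.

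Within iNKT1-like cells, Abca1 was at 42.3 and 25.7 CPM in WT, against 93.7 and 81.9 CPM in ACC1 KO. Abcg1 was at 98.3 and 85.3 CPM in WT, against 176 and 199 CPM in ACC1 KO. For both genes the genotypes stood apart, as in the sum of all cells. The log2 fold changes were 1.47 ± 0.23 for Abca1 and 1.13 ± 0.14 for Abcg1, with edgeR adjusted p-values of 0.375 and 0.344 and DESeq2 adjusted p-values of 3.66e-06 and 1.41e-06. Whether Abca1 passed the edgeR threshold again depended on which library was left out, with 1 library remaining in an arm of each such fit. Stard4 was at 17.7 and 14.2 CPM in WT, against 25.1 and 24.8 CPM in ACC1 KO, a log2 fold change of 0.74 ± 0.14 (edgeR adjusted p = 0.543). Smpdl3a, at 104 and 114 CPM in WT, against 83.7 and 81.5 CPM in ACC1 KO, was again lower in both ACC1 KO libraries. edgeR called 0 of the 8 genes at the adjusted threshold, against 0.00737% of 13567 genes, and 3 at an unadjusted p under 0.05, against 3.32%. DESeq2 called 2 of the 8 higher, against 0.464% of the genes.

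Within iNKT2-like cells, Abca1 was at 95.5 and 60.7 CPM in WT, against 171 and 127 CPM in ACC1 KO. Of the 4 classes, this one had the highest mean level of Abca1 in either genotype. Abcg1 was at 89.8 and 74.3 CPM in WT, against 148 and 163 CPM in ACC1 KO. The log2 fold changes were 0.95 ± 0.26 and 0.94 ± 0.20, with the genotypes apart for both genes. Mylip was at 108 and 90.3 CPM in WT, against 124 and 114 CPM in ACC1 KO, so its genotypes stood apart here too. Its log2 fold change of 0.27 ± 0.20 did not pass (edgeR unadjusted p = 0.196). Over all genes tested in these cells, 12.1% were higher in both ACC1 KO libraries. edgeR called 0 of the 7 genes tested, as it called 0% of 9834 genes, and 2 passed an unadjusted p under 0.05, against 2.13%. DESeq2 called none of the 7, against 0.0407% of all genes higher.

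Within cycling cells, Abca1 was at 37.8 and 21.7 CPM in WT, against 82.4 and 77.7 CPM in ACC1 KO. Abcg1 was at 53.2 and 48.6 CPM in WT, against 112 and 139 CPM in ACC1 KO. Both were separated by genotype, with log2 fold changes of 1.54 ± 0.25 and 1.33 ± 0.19. Mylip was at 75.6 and 77.1 CPM in WT, against 105 and 94.0 CPM in ACC1 KO. That log2 fold change of 0.39 ± 0.17 did not pass (unadjusted p = 0.0470, edgeR adjusted p near 1). edgeR called 0 of the 7 genes tested, against 0.0271% of 11061 genes, and 4 passed unadjusted, against 2.42%. DESeq2 called 2 higher, Abca1 (adjusted p = 0.00287) and Abcg1 (adjusted p = 0.00110), against 0.0814% of genes.

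Within interferon-responding cells, Abca1 was at 61.6 and 29.8 CPM in WT, against 121 and 113 CPM in ACC1 KO. Abcg1 was at 109 and 107 CPM in WT, against 207 and 237 CPM in ACC1 KO, its highest mean level among the 4 classes. The genotypes did not overlap, with log2 fold changes of 1.49 ± 0.28 and 1.12 ± 0.17. edgeR called 0 of the 7 genes tested, against 0.00957% of 10451 genes, and 3 passed unadjusted, against 3.5%. DESeq2 called Abca1 and Abcg1 higher (adjusted p = 0.00518 and 0.00598), against 0.124% of genes. Whether Abca1 and Abcg1 passed the edgeR threshold here depended on which library was left out. Such a fit keeps 1 library in an arm, so its p-values are not given.

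**Figure D2:**
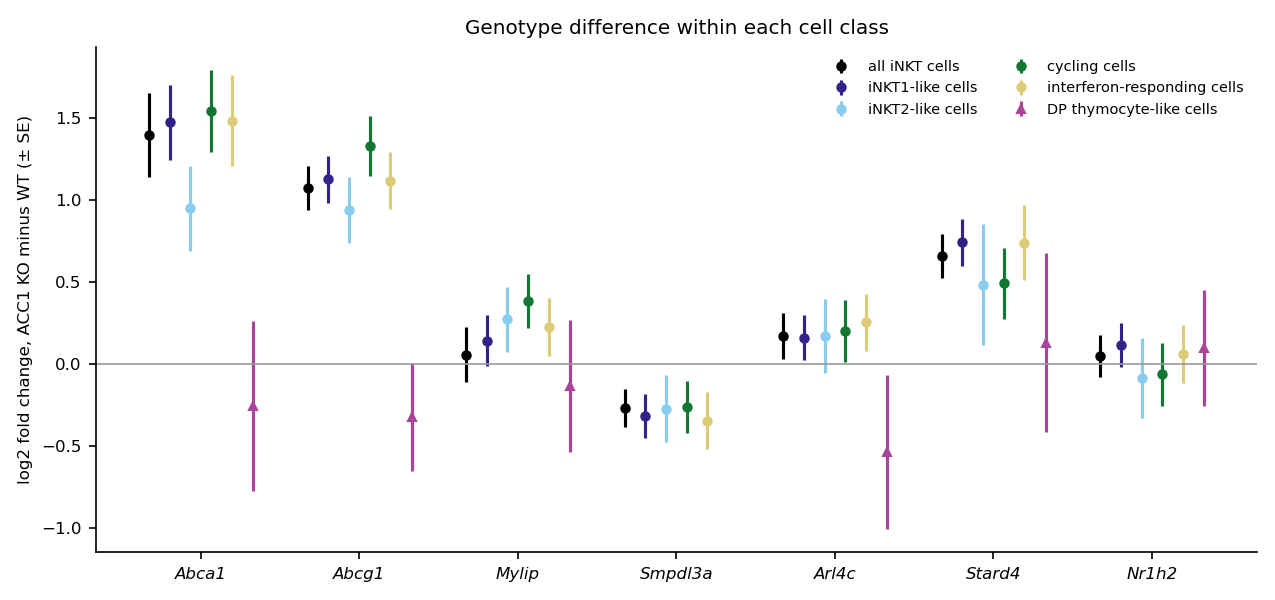
Log2 fold change, ACC1 KO minus WT, of 7 genes in the sum of all iNKT cells, in 4 iNKT classes and in DP thymocyte-like cells (triangles), with bars for the standard error of the edgeR fit on 4 libraries. Abca1 and Abcg1 lie between 0.94 and 1.54 in the iNKT sums and at -0.25 and -0.32 in DP thymocyte-like cells, a sum of 2 clusters in shares that differ between libraries; Smpdl3a was too low to be tested in the last, and Nr1h3 is not drawn.

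Whether the genotype difference itself differed between iNKT2-like and iNKT1-like cells was tested with an interaction term on 8 sums. For Abca1 the difference was smaller in iNKT2-like cells by 0.55 on the log2 scale (-0.55 ± 0.17, SE, unadjusted p = 0.00116), but it did not pass adjustment (edgeR adjusted p = 0.171). For Abcg1 it was -0.19 ± 0.16 (unadjusted p = 0.256). None of the 8 genes passed, against 0.36% of 13051 genes, and 1 passed unadjusted, Abca1, against 5.59%.

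DP thymocyte-like cells, the stage from which iNKT cells branch off, offered a comparison in the same libraries that was chosen after the values were seen. They numbered 215, 71, 208 and 85 in the 4 libraries, in that order. Abcg1 was at 85.1 and 123 CPM in the WT, against 66.6 and 86.1 CPM in the ACC1 KO libraries, and Abca1 was at 15.3 and 23.2 CPM in WT, against 12.6 and 16.0 CPM in ACC1 KO. The genotypes overlapped for both genes. The log2 fold changes were -0.32 ± 0.33 for Abcg1 and -0.25 ± 0.52 for Abca1, from 7 to 15 UMIs of Abca1 a library. edgeR called 0 genes of 7553 in these cells (0%), and 2.24% of genes, none of them among the 6 tested here, passed unadjusted. Against iNKT1-like cells, the genotype effect on Abcg1 was lower by 1.39 on the log2 scale (-1.39 ± 0.35, unadjusted p = 6.60e-05, edgeR adjusted p = 0.0649) and that on Abca1 was lower by 1.63 (-1.63 ± 0.53, unadjusted p = 0.00203, edgeR adjusted p = 0.604). Neither passed adjustment, which 0.0625% of 12792 genes did, while 3.89% passed unadjusted.

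The DP thymocyte-like class holds a resting cluster (161, 60, 115 and 65 cells, in the same order of libraries) and a cycling one (54, 11, 93 and 20 cells), so their shares differ between libraries. Abcg1 was at 189, 219, 232 and 177 CPM in the resting cluster and at 27.2, 14.1, 32.5 and 32.0 CPM in the cycling one. Abca1 was at 39.6, 43.8, 64.2 and 32.1 CPM in the resting cluster, from 6 to 13 UMIs a library, and had 0 to 2 UMIs in the cycling one. In the resting cluster the genotypes overlapped for both genes, and the log2 fold change of Abcg1 was 0.06 ± 0.30 in place of the negative value of the class. Against iNKT1-like cells, the genotype effect in the resting cluster alone was lower by 1.06 for Abcg1 (-1.06 ± 0.31, unadjusted p = 0.000661, edgeR adjusted p = 0.455) and by 1.14 for Abca1 (-1.14 ± 0.53, unadjusted p = 0.0320, edgeR adjusted p near 1). Adjustment was passed by 0.0646% of 12385 genes and an unadjusted p under 0.05 by 2.72%.

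The difference in the exporters was also read cluster by cluster. In the 11 clusters with at least 50 cells in every library, both ACC1 KO libraries were above both WT libraries in 11 for Abca1 and in 11 for Abcg1. The ratio of the genotype means ran from 1.91 to 4.07 for Abca1, and from 1.62 to 2.33 for Abcg1. The highest Abca1 ratio was in cluster 11, cells in S phase, where it went from 13.3 ± 5.22 CPM (SD, n = 2) in WT to 54.1 ± 4.66 CPM in ACC1 KO. Stard4 was separated upward in 9 of the 11 clusters and Smpdl3a downward in 9. Over all genes tested in a cluster, 9.6% were separated upward and 20.4% downward. Of the 7942 genes tested in all 11 clusters, 0.315% were separated upward in all 11, 0.894% upward in at least 9 and 1.55% downward in at least 9. With TMM scaling Abca1 and Abcg1 stayed above in 11 and Stard4 was above in 10, while Smpdl3a was below in 8 and above in 1, and the downward share of all genes was 14.6%, with 1.32% of genes below in at least 8 clusters. Mylip was separated upward in 1 and overlapped in 10, and Nr1h2 was separated in 1 cluster each way. After TMM scaling Mylip was above in 4, and Nr1h2 was above in 2 and below in 1. Clusters share their libraries, so these counts are not independent of each other.

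**Figure D3:**
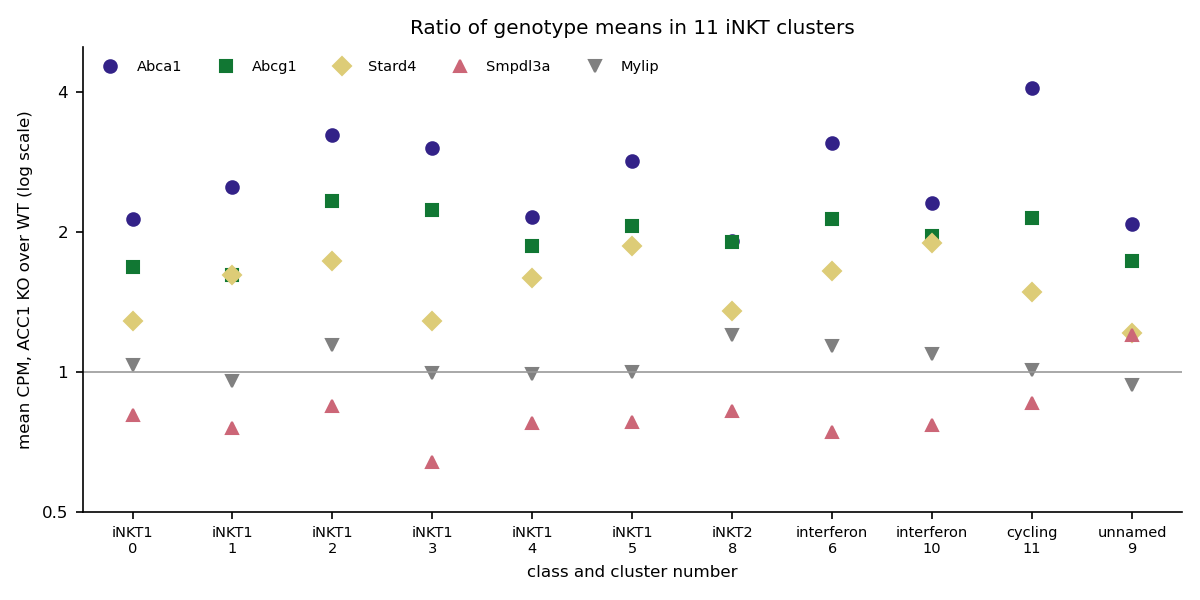
Ratio of the mean CPM in ACC1 KO to that in WT libraries, on a log scale, for 5 genes in the 11 iNKT clusters with at least 50 cells in every library, ordered by class. Abca1 and Abcg1 lie above 1.6 in each cluster, Stard4 lies from 1.21 to 1.89, Mylip lies near 1, and Smpdl3a lies below 1 except in cluster 9.

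The named classes differed in the levels of several of these genes within a genotype. These levels describe clusters made from the same cells and carry no test. Smpdl3a was at 302 ± 42.6 CPM (SD, n = 2) in WT iNKT2-like and 292 ± 17.6 CPM in WT iNKT17-like cells, whose ranges overlapped. It was at 116 ± 3.08 CPM in interferon-responding, 109 ± 7.32 CPM in iNKT1-like and 103 ± 0.307 CPM in cycling WT cells. The first 2 classes thus stood above the other 3 by more than the spread of the libraries. In iNKT0-like cells, the immature class, Smpdl3a was at 24.1 CPM in WT 1, and at 40.4 and 62.6 CPM in the ACC1 KO libraries.

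Arl4c had another order. In WT it was at 314 ± 23.8 CPM in iNKT1-like, 291 ± 1.88 CPM in interferon-responding, 259 ± 26.9 CPM in cycling, 231 ± 39.3 CPM in iNKT2-like and 144 ± 53.5 CPM in iNKT17-like cells. Cycling and iNKT2-like cells overlapped, while the other neighbours in this order did not. It was lowest in iNKT0-like cells, at 68.7 CPM in WT 1 and 20.2 and 46.2 CPM in the ACC1 KO libraries.

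Mylip was at 176 ± 34.4 CPM in interferon-responding and 157 ± 25.3 CPM in iNKT1-like WT cells, which overlapped. It was lower, at 98.99 ± 12.2 CPM, in iNKT2-like, at 86.8 ± 12.7 CPM in iNKT17-like and at 76.4 ± 1.06 CPM in cycling WT cells. Stard4 was highest in cycling cells, at 21.7 ± 3.16 CPM in WT, against 29.4 ± 1.65 CPM in ACC1 KO. It was lowest among the 4 tested classes in iNKT2-like cells, at 9.94 ± 4.08 CPM in WT, against 13.4 ± 0.475 CPM in ACC1 KO. These levels rest on 18 and 15 UMIs in WT and 36 and 81 UMIs in ACC1 KO. The WT range overlapped that of iNKT17-like cells (11.1 ± 5.53 CPM).

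Abca1 was at 78.1 ± 24.6 CPM in WT iNKT2-like cells, above the 53.4 ± 3.86 CPM of WT iNKT17-like cells. Its levels in WT iNKT17-like, interferon-responding (45.7 ± 22.5 CPM), iNKT1-like (34.0 ± 11.7 CPM) and cycling (29.7 ± 11.4 CPM) cells overlapped from each to the next. In ACC1 KO the order was iNKT2-like, interferon-responding, iNKT1-like, cycling and iNKT0-like cells, and the last held 20.2 and 28.0 CPM of Abca1 against 20.6 CPM in WT 1. Abcg1 in iNKT0-like cells was at 48.1 CPM in WT 1 and at 90.9 and 89.0 CPM in ACC1 KO. The iNKT0-like levels of all genes given here rest on 81 cells of WT 1 and on 136 and 98 cells of ACC1 KO 1 and 2. These cells held 291050, 396022 and 606636 UMIs over all genes, so their levels come from few UMIs and a single WT library. iNKT0-like cells of WT 2 and iNKT17-like cells of both ACC1 KO libraries were under 50 cells and are left out here.

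**Figure D4:**
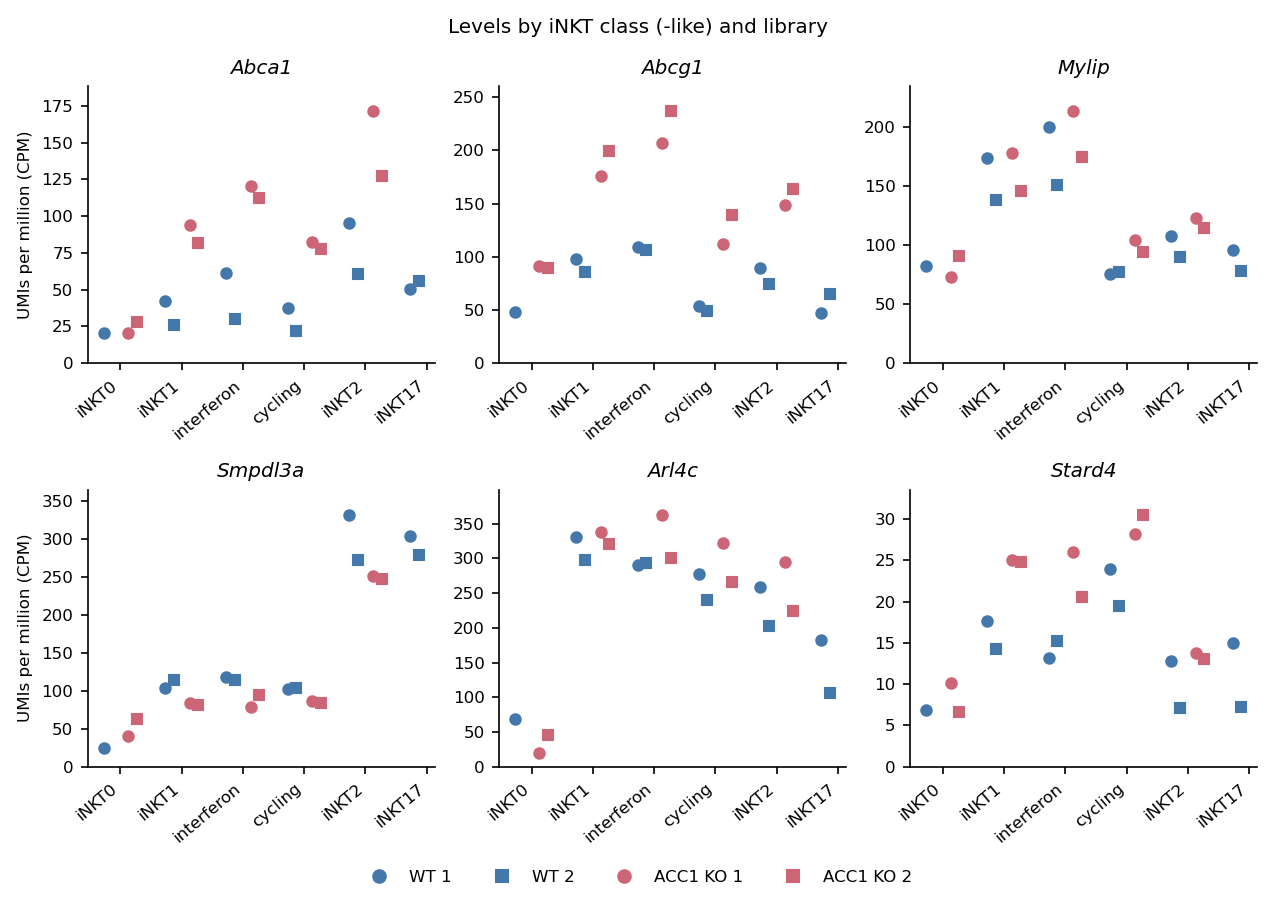
Level of 6 genes in CPM, on axes from 0, in each named iNKT class of each library with at least 50 such cells. WT is in blue and ACC1 KO in red, with circles for number 1 and squares for number 2. Smpdl3a is high in iNKT2-like and iNKT17-like cells, Arl4c is low in iNKT0-like cells, Stard4 peaks in cycling cells, and Abca1 and Abcg1 are higher in ACC1 KO in the 4 classes tested.

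The pattern of each gene was taken over 21 sums (named class by library, with at least 50 cells). It was set against 6243 genes by Pearson correlation of log2(CPM + 5), as a description, since sums of a library share its depth. Nearest to Smpdl3a were Fam129a (r = 0.96), Nrp1 (0.94) and Icos (0.93). Nearest to Abcg1 were Bbc3 (0.85), Srebf1 (0.78), itself a known LXR target, and Pik3ip1 (0.78). Nearest to Abca1 were 2410006H16Rik (0.85), Gm47015 (0.85) and Rps28 (0.82). For Mylip they were Glis3 (0.93), Rps27 (0.91) and Tnfaip3 (0.91), and for Arl4c Calhm2 (0.94), Rasa3 (0.94) and Sh3bgrl3 (0.93). For Stard4 they were Serpinb9 (0.82), Serpinb6b (0.81) and Hist1h1c (0.80), and for Nr1h2 Phc2 (0.90), Cd2 (0.88) and Hectd2 (0.88). Abca1 and Abcg1 correlated with each other at 0.72, and Smpdl3a correlated with Nr1h2 at -0.78.

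Other genes of the pathway were read from 4 lists in the same fit of all iNKT cells. Over all 14710 genes tested there, edgeR called 0.0068% and 4.84% passed unadjusted. DESeq2 called 0.455% of them higher and 0.265% lower. Of 27 further genes of the LXR and retinoid X receptor axis, 15 could be tested, edgeR called 1 higher and none lower, and DESeq2 called 5 higher. The median log2 fold change of the 15 was 0.12. The gene called by edgeR was Scd1, a fatty acid desaturase, with 2 and 3 UMIs in the WT and 347 and 841 UMIs in the ACC1 KO libraries (adjusted p = 0.0156). Scd2, a desaturase of the same family, was at 42.8 and 30.1 CPM in WT, against 224 and 246 CPM in ACC1 KO (edgeR adjusted p = 0.0735). Srebf1, which encodes the lipogenic factor SREBP1, was at 20.8 and 17.2 CPM in WT, against 59.8 and 61.6 CPM in ACC1 KO (edgeR adjusted p = 0.105). Acsl3, an acyl-CoA synthetase, was at 7.01 and 6.51 CPM in WT, against 26.0 and 28.4 CPM in ACC1 KO (edgeR adjusted p = 0.0735). In each of these 4 the genotypes stood apart, but they were picked for the smallest p of the list in this fit. Of the 15 tested, 7 were higher in both ACC1 KO libraries and 4 lower in both, against 11.4% and 19.4% of all genes.

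Of 10 genes that make or remove oxysterols, 6 could be tested, edgeR called none, 2 passed unadjusted and DESeq2 called 1 higher, with a median log2 fold change of 0.51. Cyp11a1, Hsd3b7 and Cyp39a1, 3 of the 4 with the lowest p-values, were each below 1.1 CPM in every library.

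Of 39 genes of sterol transport and storage, 32 could be tested, and edgeR and DESeq2 called none. An unadjusted p under 0.05 was passed by 2, against 4.84% of all genes, and the median log2 fold change was -0.03. Tmem97 was at 4.17 and 6.67 CPM in WT, against 10.2 and 13.0 CPM in ACC1 KO, and Scarb1, a receptor for high-density lipoprotein, was at 5.82 and 5.94 CPM in WT, against 7.57 and 11.04 CPM in ACC1 KO. Osbpl3 and Lima1 had log2 fold changes of 0.22 and 0.68. Apart from Tmem97 and Scarb1, no gene of this list passed unadjusted.

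All 23 genes of SREBP2 and sterol synthesis could be tested. edgeR called none of them at the adjusted threshold, 15 passed unadjusted, DESeq2 called 8 higher and none lower, and the median log2 fold change was 0.63. Cyp51 was at 11.7 and 11.4 CPM in WT, against 27.9 and 29.7 CPM in ACC1 KO. Sqle, a rate-limiting oxidase of the pathway, was at 2.04 and 1.52 CPM in WT, against 9.91 and 7.92 CPM in ACC1 KO. Insig1 was at 8.03 and 8.52 CPM in WT, against 22.7 and 27.1 CPM in ACC1 KO, and Idi1 at 9.90 and 9.47 CPM in WT, against 29.6 and 21.1 CPM in ACC1 KO. In all 4 the genotypes stood apart, but these genes were picked for the smallest p of the list in this fit. Of the 23 genes, 18 were higher in both ACC1 KO libraries and 0 lower in both, against 11.4% and 19.4% of all genes. Stard4, the member of the 8 that shares their known regulator, was also higher in both. The edgeR adjusted p-values of the 4 picked genes ran from 0.194 to 0.347.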

How the data were processed

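The deposited values are counts of UMIs per gene and cell barcode, which the authors obtained by running Cell Ranger 7.0.0 against mm10, per the submitters' processing notes. Per the labels' protocols, the 10x Genomics 3′ chemistry was version 3.1. The 8 genes and the pathway lists were chosen with earlier results of these data known.

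Of 30455 barcodes, 288 with under 500 genes, under 1000 UMIs or at least 10% mitochondrial UMIs were removed, as were 1920 scored as doublets against simulated pairs. Cells were scaled within each library number and clustered (scanpy 1.11.5, 2000 variable genes, Leiden resolution 1), and the 25 clusters were named from marker genes, with score limits set after the scores were seen. UMIs were summed per library and class. Genotypes were compared with edgeR 4.0.16 (quasi-likelihood F test, TMM, filterByExpr, no covariate) and, as an alternative, DESeq2 1.42.0, adjusted by Benjamini-Hochberg over all genes tested. Within-number fold changes use a prior count of 2. Genes named besides the 8 are up to 4 of each list with the smallest p, and the 3 nearest in pattern to each. Of these, 1 gene is not reported here. The edgeR fits were checked on simulated counts. Positions are from GENCODE M21 (GRCm38). Cell numbers above and UMI totals of 23.5 to 65.0 M set the precision, and doublets removed came to 4.36 to 7.91% of a library.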

Additional observations from a re-analysis of the deposited data

How the results depend on the processing

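Abca1 and Abcg1 were higher in ACC1 KO in 63 of 63 fits of their genotype difference under an alternative (log2 fold changes of 0.65 to 1.99 and 0.76 to 1.48), Stard4 in 62 of 62, and Smpdl3a was lower in 63 of 63. What moved was the number of calls, and its cause was not tested. Taking all iNKT cells, then the iNKT1-like, the iNKT2-like, the cycling and last the interferon-responding ones, edgeR called 1, 1, 0, 3 and 1 genes in all. DESeq2 called 106, 80, 4, 10 and 14, of which 2, 2, 0, 2 and 2 were among the 8. Without a filter on low counts edgeR called 355, 215, 19, 39 and 91, with 3, 3, 2, 2 and 2 among the 8. Leaving out each library in turn gave 2 to 86, 5 to 29, 9 to 37, 0 to 10 and 0 to 116, with 0 to 1, 0 to 1, 0, 0 and 0 to 2 among the 8. Keeping doublets gave 0 in all iNKT, 2 in iNKT1-like and 4 in interferon-responding cells, and thinning cells to 2000 UMIs gave 3, 2, 0, 1 and 2. Every barcode summed gave 0. A resolution of 2 gave 2 in iNKT1-like and 4 in interferon-responding cells, a resolution of 0.5 gave 6 in the latter and no iNKT2-like cluster, and clustering without the 8 genes and the lists gave 5 in cycling and 5 in interferon-responding cells.

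With the replicate number as a block (replicate block), edgeR called 1315, 1018, 129, 227 and 429 genes, with 3, 4, 2, 2 and 3 of the 8 among them. Abca1 and Abcg1 were among them in all 5, Stard4 in all iNKT, iNKT1-like and interferon-responding cells, and Smpdl3a (lower) in iNKT1-like cells. Deviations of same-numbered libraries from their genotype means correlated at 0.87 over 7977 genes. Levels of Xist and Ddx3y went with the number in both genotypes, so same-numbered libraries shared that trait. The labels do not say that a number otherwise pairs libraries, and 2 pairs cannot show it.

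The class difference for iNKT2-like cells called 47 genes, and 6 after thinning. That for DP thymocyte-like cells, chosen after seeing the data along with its alternatives, called 8, and 3 without the filter and 1 after thinning. With its resting cluster alone it called 8, and Mylip turned to 0.0667. Leaving out a pair of libraries from these could not be fitted, with no residual degrees of freedom.

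No value whose sign turned passed the test before or after the turn. Nr1h3 in iNKT1-like cells was at -0.0272 with DESeq2, at -0.0078 without the filter and at -0.41 to 0.36 over left-out libraries, and in all iNKT cells at -0.13 to 0.62. Mylip in all iNKT cells ran over -0.0747 to 0.21, Arl4c in iNKT2-like cells over -0.0223 to 0.35 and Nr1h2 in iNKT2-like and cycling cells over -0.25 to 0.0416 and -0.12 to 0.0531. Nr1h2 was at 0.0468 in iNKT2-like cells at resolution 2, and after thinning at 0.38 in cycling and -0.0208 in interferon-responding cells. The class difference of Arl4c was at -0.0050, -7e-04 and -0.31 with RLE factors, without the filter and with doublets, that of Smpdl3a at -0.18 after thinning, and that of Nr1h2 in DP thymocyte-like cells at 0.0635 with doublets. Class levels of at least 5 CPM stayed within 1.5 times in 56 of 56 values at resolution 2 and without the lists, in 42 of 42 at resolution 0.5 and in 55 of 56 after thinning.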

Other observations

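The cells left out of the iNKT sums also carried these genes. Nr1h3, which gave 79 UMIs in 27033 iNKT cells, gave 4, 4, 6 and 21 UMIs in the 16, 8, 22 and 38 myeloid-like cells of WT 1, WT 2, ACC1 KO 1 and ACC1 KO 2, which came to 38.0, 59.6, 56.3 and 72.8 CPM of Nr1h3. LXR alpha is known as the form of macrophages. Each of these levels rests on few cells, and no comparison between genotypes was made in them.

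B cell-like cells numbered 376, 18, 119 and 38 in the same libraries. Abca1 was at 56.3 and 134 CPM in their WT sums and at 213 and 203 CPM in their ACC1 KO sums, so that the ACC1 KO values lay above both WT values. The class is made of different clusters in each library. WT 1 held 247, 106 and 23 cells in clusters 14, 20 and 24, the second of them found in no other library, and ACC1 KO 1 held 117 in cluster 14, while cluster 23 held 14 cells of WT 2 and 33 of ACC1 KO 2. Abca1 was at 104 and 220 CPM in cluster 14 in WT 1 and ACC1 KO 1, at 8.995 CPM in cluster 20, and at 184 and 264 CPM in cluster 23 in WT 2 and ACC1 KO 2. Abcg1 was at 27.1 and 159 CPM in WT B cell-like cells against 115 and 142 CPM in ACC1 KO, which overlapped. The WT 2 values rest on 27 UMIs of Abca1 and 32 UMIs of Abcg1, fewer than 50 cells were present in 2 of the libraries, and no test was made.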
